A study of Homo sapiens with 30 samples.

Results

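The genes described here are 10 immediate early genes that encode subunits of the transcription factor AP-1, its relatives and the EGR zinc finger factors: FOS, FOSB, FOSL1, JUN, JUNB, ATF3, EGR1, EGR2, EGR3 and IER2. They were chosen by symbol from 63138 genes of a deposited table of raw counts, and all 10 were found and tested. RNA was sequenced from hCMEC/D3, an established line of immortalized human brain microvascular endothelial cells, a single line used as a model of the blood-brain barrier. In the 5 direct groups the cells were kept in serum-free medium alone (Control) or received 200 nM epinephrine (Epinephrine), 50 ng/mL of C5a, a complement fragment (C5a), 10 ng/mL of the cytokine IL-1β (IL1b) or 25 ng/mL of the cytokine TNFα (TNF). In 5 vesicle groups, whose names carry the prefix EV (EV-Control, EV-Epinephrine, EV-C5a, EV-IL1b and EV-TNF), cells of the line were given extracellular vesicles, the small membrane particles that cells release, enriched from the supernatants of cells that had been treated in the corresponding way. Titles of all libraries give 12 hours, each group had 3 libraries, and the EV-Control cells also received vesicles, those of cells kept in serum-free medium.

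AP-1 is a dimer of a FOS family and a JUN family protein, or of a JUN protein with an ATF protein, and it binds short palindromic sites in promoters and enhancers. Immediate early genes are transcribed within minutes of a signal from factors that the cell already holds, such as SRF and CREB. Their mRNAs are short-lived, so that a level at a late time says little about the first peak after the signal. EGR1, EGR2 and EGR3 are zinc finger factors that bind GC-rich sites, and in endothelium AP-1 and EGR1 are known for their response to cytokines, growth factors and shear stress.

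Promoter sequences were compared because the members did not all move together: FOSB and JUNB went with ATF3 over the 10 groups, while FOS and EGR1 did not. The sequences are from RefSeq (GRCh38.p14), 8 of the 10 genes had an entry, and 11 windows of 250 bases before the annotated start were searched. FOSL1 and EGR3 were not in the table. The lines give the plus-strand windows of FOS (chr14:75278578-75278773, cut at the first GENCODE 29 exon), FOSB (chr19:45467746-45467994, cut in the same way), JUNB (chr19:12791236-12791485) and EGR1 (chr5:138465229-138465478), 5′ to 3′, with motif matches in capitals.
FOS: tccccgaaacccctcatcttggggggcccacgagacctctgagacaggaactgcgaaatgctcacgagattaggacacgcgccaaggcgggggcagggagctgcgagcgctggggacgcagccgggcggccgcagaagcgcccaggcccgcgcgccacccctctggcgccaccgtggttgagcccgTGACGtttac
FOSB: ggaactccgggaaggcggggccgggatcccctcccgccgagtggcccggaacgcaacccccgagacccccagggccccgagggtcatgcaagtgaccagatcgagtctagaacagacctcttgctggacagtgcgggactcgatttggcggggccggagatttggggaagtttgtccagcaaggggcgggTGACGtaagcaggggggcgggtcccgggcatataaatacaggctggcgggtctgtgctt
JUNB: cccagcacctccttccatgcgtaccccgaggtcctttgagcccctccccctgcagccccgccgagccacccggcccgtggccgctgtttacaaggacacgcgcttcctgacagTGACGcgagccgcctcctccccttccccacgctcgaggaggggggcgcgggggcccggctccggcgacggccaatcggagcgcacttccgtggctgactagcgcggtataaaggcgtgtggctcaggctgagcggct
EGR1: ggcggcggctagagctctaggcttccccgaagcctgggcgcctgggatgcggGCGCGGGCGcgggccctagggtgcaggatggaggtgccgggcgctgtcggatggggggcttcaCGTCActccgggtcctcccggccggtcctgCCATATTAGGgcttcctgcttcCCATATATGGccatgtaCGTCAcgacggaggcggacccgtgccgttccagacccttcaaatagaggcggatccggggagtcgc
The motifs searched on both strands were TGACNTCA (the full cyclic AMP response element and its near variant), TGACG (its shorter form, which the full element contains), TGANTCA (the classic AP-1 site), the CArG box bound by SRF, and GCGNGGGCG (the EGR1 site). TGACG lay in 7 of the 11 windows, 1 in each of 7 genes (EGR1, EGR2, FOS, FOSB, IER2, JUN and JUNB), and 21.2% of all 35116 RefSeq windows held it. In FOS it lay 64 to 60 bases before the start, in FOSB 60 to 56 and in JUNB 137 to 133. These distances are to the RefSeq start, and the printed FOS line leaves out the last 54 bases before it. TGACNTCA lay in 2 of the 11 windows (ATF3 and JUN), against 6.87% of all windows, and TGANTCA in 0, against 6.57%. CArG boxes lay in 2 of the 11 windows: in EGR1, at 105 to 96 and 83 to 74 bases before the start, and in EGR2, against 1.16% of all windows. GCGNGGGCG lay in 1 window, that of EGR1, against 8.41%. The matches are letters in a window and no measure of binding. Sites more than 250 bases before the start were not searched, so a motif absent from a window may lie further away.

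The 30 libraries held 16643961 to 22112326 counts each. All 8 endothelial markers were detected in every library, the highest being PECAM1 at 143 to 287 CPM and CDH5 at 174 to 439.5. TIE1 stood at 100.8 to 170.5 CPM, ERG at 69.69 to 106.2 and VWF at 37.53 to 104.2. Lower were TEK (18.11 to 65.01 CPM), CLDN5 (14.05 to 51.06 CPM) and KDR (4.795 to 16.08 CPM). Of the leukocyte markers CD3E was at 0 counts in 26 of 30 libraries and AIF1 in 27, while PTPRC (3 to 30 counts) and CD14 (13 to 49 counts) were at 0 in none. The glial marker AQP4 was at 0 in all 30, GFAP held 12 to 108 counts, and no epithelial marker exceeded 7 counts in a library. The mural markers CSPG4 (251 to 441 CPM) and PDGFRB (34.4 to 88.7 CPM) and the glial marker MBP (87.2 to 123 CPM) were present. The mural markers ACTA2 (1.606 to 3.575 CPM) and RGS5 (4.404 to 11.35 CPM) were lower, and the neuronal marker RBFOX3 held 0 to 7 counts. All levels here are CPM, counts scaled by library total and by edgeR's trimmed mean of M-values (TMM) factors. Values are listed for libraries 1, 2 and 3 in that order. The labels do not say that libraries of the same number belong together. Nothing in the labels says that the 3 libraries of a group came from separate cultures, so the p-values measure only the spread between these libraries, which may be technical. In bulk RNA, fewer cells with a transcript and less of it per cell cannot be told apart.

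Libraries of the same group stood far apart in several of these genes. FOS had the widest log2 range between replicates of all genes of at least 5 CPM in 3 groups: 1.60 in Control (rank 1 of 10583 genes), 1.51 in TNF (of 10515) and 3.00 in EV-Control (of 10589). FOSB ranked 2 in Control, 3 in TNF and 66 in EV-Control. In EV-Control, EGR1 ranked 11, JUN 21 and IER2 45, while FOSL1, with a range of 0.10, ranked 7253. The libraries also leaned the same way over the genes: EV-Control 3 was the highest of its group for 8 of the 10 genes and EV-Control 1 the lowest for 7, TNF 2 was the highest for 9 and TNF 1 the lowest for 9, and EV-TNF 3 was the highest for all 10. Control 1 was the highest for 7 genes and Control 2 the lowest for 9. EV-IL1b 3 was the highest for 9 genes and EV-Epinephrine 3 for 7, while EV-C5a 3 was the highest for 1. Library 1 was the lowest for 9 genes in EV-TNF, 5 in EV-IL1b, 5 in EV-C5a and 6 in EV-Epinephrine. The summed CPM of 11 heat shock genes was 3680, 3854 and 4163 in EV-Control 1, 2 and 3, and mitochondrial transcripts took 2.29%, 1.99% and 2.49% of their counts. The part of either in the spread was not tested.

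**Figure D1:**
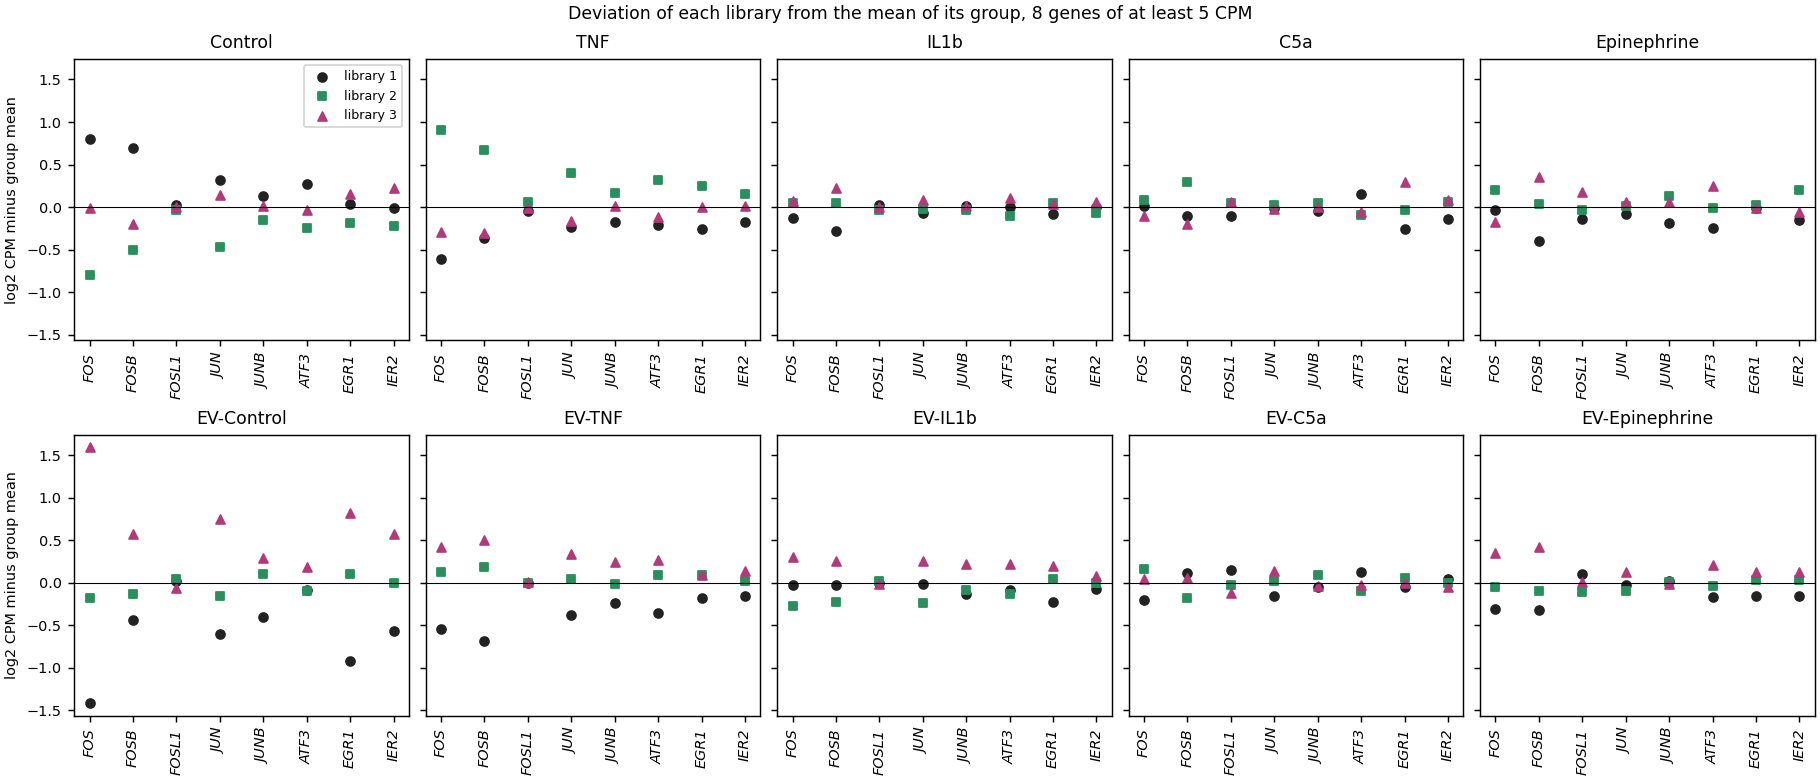
Each panel is a group; points give the log2 CPM of each of its 3 libraries minus the group mean, for the 8 genes of at least 5 CPM. In EV-Control the points of library 3 lie above 0 and those of library 1 below 0 for FOS, FOSB, JUN, JUNB, EGR1 and IER2, while the points of FOSL1 lie close together.

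**Figure D2:**
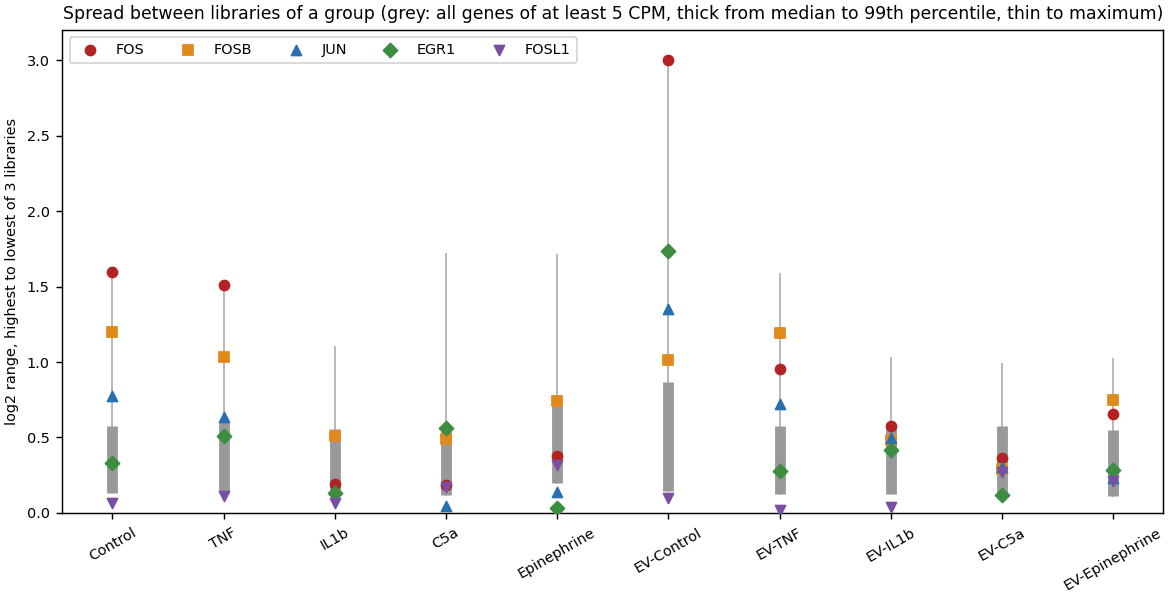
The within-group log2 range of FOS, FOSB, JUN, EGR1 and FOSL1 in each group, beside the ranges of all genes of at least 5 CPM. FOS reaches 3.00 in EV-Control, the widest of 10589 genes, and FOSL1 stays within the bulk of genes.

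FOS (ENSG00000170345; chr14:75278774-75282230, plus strand, GENCODE 29 on GRCh38) encodes c-Fos, the AP-1 subunit that pairs with JUN proteins. In the direct groups FOS stood at 477, 158 and 271 CPM in Control, 192, 547 and 239.8 in TNF, and 253, 285 and 289 in IL1b. In C5a it stood at 169, 178 and 156 and in Epinephrine at 164, 194 and 149. All 4 treated groups overlapped Control, whose highest and lowest libraries were 1.60 apart on the log2 scale. With vesicles FOS stood at 44.2, 104 and 355 CPM in EV-Control, at 461, 729 and 894 in EV-TNF and at 758, 642 and 958 in EV-IL1b. In EV-C5a it stood at 289, 372 and 344 and in EV-Epinephrine at 176, 210.3 and 279. Both EV-TNF and EV-IL1b lay above all EV-Control libraries, EV-C5a and EV-Epinephrine overlapped them, and TNF 2 and Control 1 reached into the EV-TNF range. In the order of group means, from EV-IL1b (785.8) to EV-Control (167.9), 8 of the 9 neighbouring pairs overlapped.

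FOSB (ENSG00000125740; chr19:45467995-45475179, plus strand, with ERCC1 on the opposite strand over part of it) encodes a second FOS family subunit. It stood at 182, 79.0 and 97.7 CPM in Control, 323, 662 and 338 in TNF, and 56.8, 71.5 and 81.1 in IL1b. In C5a it stood at 30.5, 40.5 and 28.8, the lowest group, and in Epinephrine at 155, 210.2 and 260.3. TNF lay above and C5a below all 3 Control libraries, while IL1b and Epinephrine overlapped them. With vesicles FOSB stood at 383, 476 and 773 CPM in EV-Control, 244, 446 and 557 in EV-TNF, and 424, 371 and 518 in EV-IL1b. In EV-C5a it stood at 617, 504 and 594 and in EV-Epinephrine at 75.4, 87.9 and 127. EV-Epinephrine was the one vesicle group apart from the rest, and the highest group mean (EV-C5a) was 17.2 times the lowest (C5a).

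FOSL1 (ENSG00000175592; chr11:65892049-65900573, minus strand) encodes Fra-1, a FOS family subunit without the strong activation domain of c-Fos. Its replicates lay close together, at 53.9, 51.4 and 52.9 CPM in Control, 224, 242 and 229 in TNF, and 69.7, 66.7 and 68.3 in IL1b. In C5a it stood at 35.0, 38.9 and 39.4 and in Epinephrine at 68.3, 73.3 and 85.1. Each treated group was apart from Control. With vesicles FOSL1 stood at 101, 103 and 96.1 CPM in EV-Control, 59.1, 59.0 and 59.7 in EV-TNF, and 68.6, 69.2 and 67.5 in EV-IL1b. In EV-C5a it stood at 105, 93.0 and 87.0 and in EV-Epinephrine at 51.6, 44.6 and 48.3. TNF was apart from every other group, and 4 of the 9 neighbouring pairs in the order of means overlapped.

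JUN (ENSG00000177606; chr1:58780788-58784327, minus strand) encodes c-Jun, the AP-1 subunit that is also a target of the JNK kinases. It stood at 386, 225 and 344 CPM in Control, 739, 1149 and 776 in TNF, and 658, 675 and 731 in IL1b. The C5a libraries stood at 567, 579.8 and 562 and those of Epinephrine at 482, 516 and 530.5, so that all 4 treated groups lay above Control. With vesicles it stood at 318, 434 and 811 CPM in EV-Control, 500.3, 672 and 824 in EV-TNF, and 793, 679.6 and 959 in EV-IL1b. The EV-C5a libraries stood at 657, 745 and 810.3 and those of EV-Epinephrine at 429, 406 and 476. All 4 vesicle groups overlapped EV-Control, whose libraries were 1.35 apart on the log2 scale.

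JUNB (ENSG00000171223; chr19:12791496-12793315, plus strand, with HOOK2 on the opposite strand over part of it) encodes a JUN family subunit that can restrain c-Jun. It stood at 262, 215 and 240.0 CPM in Control, 370.3, 471 and 422 in TNF, and 139.9, 135 and 139 in IL1b. Levels with C5a were 93.2, 99.5 and 96.1 and those in Epinephrine 175, 218 and 207. TNF lay above Control, and IL1b and C5a lay below it. With vesicles JUNB stood at 202, 287 and 326 CPM in EV-Control, 219, 256 and 306 in EV-TNF, and 226, 233 and 289 in EV-IL1b. Levels in EV-C5a were 286, 317 and 288 and those in EV-Epinephrine 154, 152 and 149.9, the one vesicle group apart from EV-Control.

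ATF3 (ENSG00000162772; chr1:212565334-212620777, plus strand) encodes a stress-induced factor that dimerizes with JUN proteins and often represses its targets. It stood at 277, 193 and 224 CPM in Control, 690.0, 989 and 737 in TNF, and 50.0, 46.2 and 53.7 in IL1b. The C5a libraries stood at 41.5, 34.9 and 35.7 and those of Epinephrine at 296, 348 and 416. TNF and Epinephrine lay above Control, and IL1b and C5a lay below it. With vesicles ATF3 stood at 550.3, 547 and 667 CPM in EV-Control, 299.6, 409 and 462 in EV-TNF, and 395, 383 and 489 in EV-IL1b. The EV-C5a libraries stood at 686, 590.1 and 618 and those of EV-Epinephrine at 105, 115 and 136. The highest group mean (TNF) was 21.6 times the lowest (C5a), and 3 of the 9 neighbouring pairs in the order of means overlapped, the fewest among the 10 genes.

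EGR1 (ENSG00000120738; chr5:138465490-138469315, plus strand) encodes the best known of the EGR factors. It stood at 125, 108 and 136 CPM in Control, 137, 196 and 165 in TNF, and 163, 178 and 177 in IL1b. Levels with C5a were 238, 278 and 351 and those in Epinephrine 248, 254 and 249. Every treated library lay above every Control library, TNF 1 by little. Scaled by total counts alone, TNF overlapped Control: TNF 1 and 3 stood at 118.3 and 139.9, and Control at 128.5, 111.4 and 139.9. With vesicles EGR1 stood at 87.8, 179 and 293 CPM in EV-Control, 460.3, 555 and 557 in EV-TNF, and 408, 492 and 547 in EV-IL1b. Levels in EV-C5a were 261, 283 and 270.2 and those in EV-Epinephrine 321, 365 and 391. EV-C5a lay inside the EV-Control range and the other 3 groups above it.

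EGR2 (ENSG00000122877; chr10:62811996-62919900, minus strand) and EGR3 (ENSG00000179388; chr8:22687659-22693302, minus strand) encode close relatives of EGR1 and were near the floor of detection, at no more than 56 and 46 counts in a library. EGR2 stood at 0.37, 0.16 and 0.337 CPM in Control, 0.334, 0.215 and 0.0577 in TNF, and 0.155, 0 and 0.319 in IL1b. The C5a libraries stood at 0.775, 0.793 and 1.66 and those of Epinephrine at 1.78, 1.58 and 2.11. C5a and Epinephrine lay above Control, and TNF and IL1b overlapped it. With vesicles EGR2 stood at 0.12, 0.771 and 1.37 CPM in EV-Control, 2.13, 2.61 and 3.18 in EV-TNF, and 1.61, 1.77 and 2.34 in EV-IL1b. The EV-C5a libraries stood at 0.68, 1.07 and 0.765 and those of EV-Epinephrine at 1.35, 0.797 and 1.05. EV-TNF and EV-IL1b lay above EV-Control, while the other 2 groups overlapped it.

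EGR3 stood at 0.211, 0.267 and 0.393 CPM in Control, 0.267, 0.644 and 0.577 in TNF, and 0, 0.0528 and 0 in IL1b. The 3 IL1b libraries held 1 count in all, against 16 in Control and 26 in TNF. Per unit of depth that was 16.5 times less than in Control (95% exact interval 2.56 to 691) and 29.2 times less than in TNF (4.79 to 1200), intervals that cover counting error only. In C5a EGR3 stood at 0.155, 0.159 and 0.251 CPM and in Epinephrine at 2.04, 1.41 and 2.11, the highest group. The vesicle groups lay close together, at 1.32, 1.54 and 1.15 CPM in EV-Control, 0.762, 1.02 and 1.48 in EV-TNF, 0.577, 1.07 and 1.77 in EV-IL1b, 0.732, 1.17 and 0.601 in EV-C5a, and 0.519, 0.968 and 1.28 in EV-Epinephrine. Of these groups all 4 overlapped EV-Control.

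IER2 (ENSG00000160888; chr19:13150415-13154908, plus strand) encodes a nuclear protein of the immediate early class that is not an AP-1 subunit. It was the flattest of the 10 genes, at 71.7, 61.7 and 84.2 CPM in Control, 107, 135 and 122 in TNF, and 67.4, 63.9 and 70.2 in IL1b. Levels with C5a were 71.4, 81.8 and 83.5 and those in Epinephrine 82.6, 106 and 88.2. TNF alone lay above Control without overlap. With vesicles IER2 stood at 56.6, 84.3 and 125 CPM in EV-Control, 96.7, 109.8 and 119 in EV-TNF, and 113, 119 and 126 in EV-IL1b. Levels in EV-C5a were 105, 101 and 98.3 and those in EV-Epinephrine 76.6, 86.9 and 92.8. All 4 lay inside or across the EV-Control range, and the highest group mean was 1.80 times the lowest.

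**Figure D3:**
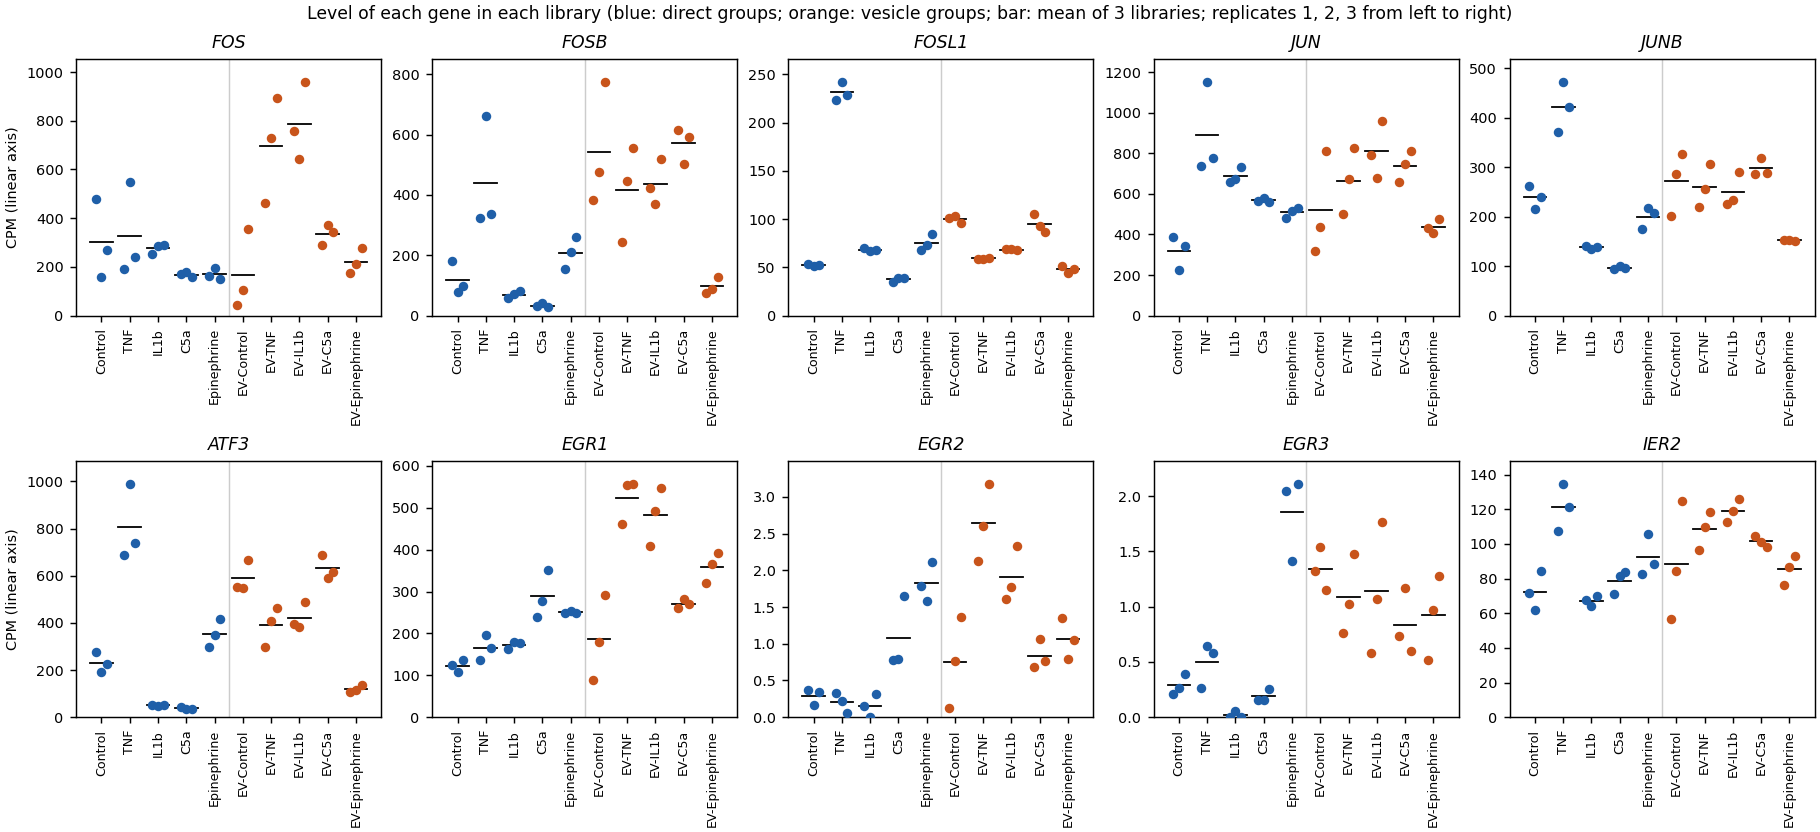
CPM of each gene in each of the 30 libraries on linear axes, direct groups in blue and vesicle groups in orange, with a bar at the mean of each 3 libraries. FOSL1 and ATF3 are highest in TNF (mean 231.3 and 805.4 CPM), and FOS shows EV-TNF and EV-IL1b above a widely spread EV-Control.

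Levels of different genes were compared per kilobase of exon. In Control JUNB was highest at 131 CPM per kilobase, followed by FOS at 93.3, JUN at 90.0, ATF3 at 57.3 and EGR1 at 39.2. FOSL1 at 28.0, IER2 at 23.6 and FOSB at 21.5 came next, and EGR2 and EGR3 were at 0.0784 and 0.0598. Whether the counting used the strand is not known, so reads of FOSB and ERCC1, JUNB and HOOK2, EGR3 and AC055854.1, and IER2 and AC011446.2, which lie on opposite strands, may have been mixed.

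TNF raised 7 of the 10 genes and lowered 0. With p from edgeR's quasi-likelihood test, adjusted by Benjamini-Hochberg over all 15908 genes tested, 52.7% of genes were called in this comparison and 27.5% rose, so that being called was common and the direction of the 7 was the less common part. FOSL1 rose by 2.13 ± 0.062 on the log2 scale (SE, 3 libraries a group, adjusted p = 5.43e-26), FOSB by 1.88 ± 0.37 (adjusted p = 0.00128) and ATF3 by 1.80 ± 0.18 (adjusted p = 5.36e-06). JUN rose by 1.48 ± 0.20 (adjusted p = 7.79e-05), JUNB by 0.82 ± 0.095 (adjusted p = 6.87e-06) and IER2 by 0.74 ± 0.13 (adjusted p = 2.92e-04). FOS was at 0.11 ± 0.42 (adjusted p = 0.845), EGR2 at -0.54 ± 0.72 (adjusted p = 0.56) and EGR3 at 0.79 ± 0.56 (adjusted p = 0.241). EGR1 rose by 0.44 ± 0.16 (adjusted p = 0.038), a call that was lost without Control 1, Control 2, TNF 2 or TNF 3 (0.30 to 0.45, adjusted p 0.0746 to 0.154). With scaling by total counts alone EGR1 was at 0.16 (adjusted p = 0.387), and with all 30 libraries in the fit the adjusted p was 0.17. The median of the 10 genes was 0.80, and that of all genes tested -0.01. Total counts alone moved the latter to -0.29 and the split of all calls from 4369 higher and 4019 lower to 2286 and 7779. Control and TNF libraries did not overlap in 7 of the 10 genes (59.5% of all genes), and 4 passed with a log2 fold change over 1 in size (12.8%).

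The lists of partners and targets are read against the 52.7% of all genes called with TNF. Of the 7 other AP-1 family subunits tested, 4 rose and 0 fell: BATF2 by 3.17 (from 5.89 to 53.0 CPM), BATF3 by 1.93, FOSL2 by 0.63 and ATF2 by 0.29. Of 22 other immediate early genes 12 rose and 3 fell. The pseudokinase gene TRIB1 rose by 2.06, SGK1, a kinase, by 1.76 and MYC by 1.26, while KLF2, a factor of quiescent endothelium, fell by 1.45. Of 9 tested genes known as AP-1 targets 8 rose and 1 fell, among them the collagenase gene MMP1 (3.76, from 0.329 to 4.51 CPM), the adhesion receptor CD44 (1.64) and the growth factor HBEGF (1.61). Of 10 genes known as EGR1 targets 5 rose and 3 fell, and F3, which encodes tissue factor (1.98), THBS1 (1.48) and FGF2 (1.21) were among those that rose. Of 12 upstream kinases 4 rose and 3 fell (MAP2K1 by 0.47, RPS6KA3 by 0.30), and of 6 genes of SRF and its cofactors 3 rose and 0 fell, all by no more than 0.30 (ELK3). With total counts alone these last 2 lists split 1 to 8 and 0 to 2. NAB1 and NAB2, corepressors of the EGR factors, did not pass, and 9 of 11 heat shock genes rose, DNAJA1 by 1.14.

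IL1b split the genes, with 3 higher and 3 lower than Control. The background was 46.6% of 15908 genes called, 24% higher and 22.6% lower, by the same test, so that 6 of 10 is not far above it; with total counts alone the split of all calls was 2923 to 4634 in place of 3825 to 3595. JUN rose by 1.12 ± 0.20 (adjusted p = 7.80e-04) and FOSL1 by 0.38 ± 0.064 (adjusted p = 6.59e-06). ATF3 fell by 2.20 ± 0.19 (adjusted p = 2.75e-06), the reverse of its direction with TNF, and JUNB fell by 0.78 ± 0.098 (adjusted p = 1.87e-05). EGR3 fell (adjusted p = 0.00289), with 1 count left as described. EGR1 rose by 0.50 ± 0.16 (adjusted p = 0.0228) and lost the call without Control 1, Control 2, IL1b 2 or IL1b 3 (0.41 to 0.51, adjusted p 0.0524 to 0.0874), and with all 30 libraries in the fit (adjusted p = 0.129). FOSB was at -0.77 ± 0.39 (adjusted p = 0.13), FOS at -0.12 ± 0.42 (adjusted p = 0.839), EGR2 at -0.84 ± 0.74 (adjusted p = 0.369) and IER2 at -0.10 ± 0.13 (adjusted p = 0.555). Libraries of IL1b and Control did not overlap in 6 of the 10 genes (56.3% of all genes), and 3 passed with a log2 fold change over 1 in size (7.03%).

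With IL1b 46.6% of all genes were called, 24% higher and 22.6% lower, the share to set beside each list count. Calls among the kinases and SRF genes were near that share. The other immediate early genes were mostly lower. Of 22, 3 rose and 15 fell: the log2 fold change was -3.44 for the nuclear receptor gene NR4A1 (from 191 to 17.5 CPM), -1.84 for KLF2, -1.49 for the mRNA decay factor gene ZFP36 and -1.35 for KLF10. Of the 9 AP-1 targets tested 6 rose and 3 fell, with MMP1 at 3.58, CD44 at 1.54 and HBEGF at -1.12. Of the AP-1 family 4 rose and 2 fell, BATF2 by 1.39, BATF3 by 1.26 and FOSL2 by 0.48 among the first, while JUND fell by 0.64. Of the EGR1 targets 5 rose and 2 fell (FGF2 at 1.06, VEGFA at 0.98, NAB2 at -0.32), and NAB1 rose by 0.38. Among 12 kinases 2 rose and 3 fell, none by more than 0.29 (MAPK3), 3 of 6 SRF genes rose and 0 fell (MRTFB by 0.52), and 8 of 11 heat shock genes rose and 1 fell (HSPD1 by 0.87).

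Set directly against TNF, the IL1b libraries were lower in 6 of the 10 genes and higher in 0, where 41.4% of all genes were called and 21.4% were lower. With total counts alone the split of all calls was 6504 higher to 2042 lower in place of 3168 to 3412. ATF3 was lower with a log2 fold change of -4.0 ± 0.20 (adjusted p = 2.02e-08), FOSB was at -2.65 ± 0.39 (adjusted p = 2.06e-04), and FOSL1 at -1.75 ± 0.061 (adjusted p = 3.40e-23). JUNB was at -1.60 ± 0.098 (adjusted p = 1.42e-08), IER2 at -0.84 ± 0.13 (adjusted p = 1.56e-04), and EGR3 also passed (adjusted p = 1.37e-04). JUN (-0.36 ± 0.20, adjusted p = 0.173) and EGR1 (0.06 ± 0.16, adjusted p = 0.783) did not pass, nor did FOS (-0.24 ± 0.42, adjusted p = 0.697) and EGR2 (-0.30 ± 0.80, adjusted p = 0.796). The other immediate early genes gave 2 higher and 18 lower of 22, and the AP-1 targets 0 higher and 5 lower of 9, HBEGF at -2.73 first. These 3 comparisons share libraries, so their values stand side by side and are not independent. Libraries did not overlap in 7 of the 10 genes (51.5% of all genes), JUN being the uncalled one, and 5 passed with a log2 fold change over 1 in size (7.07%); 19.9% of all genes were called higher.

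C5a lowered 4 of the 10 genes and raised 3, against 22.6% of all genes called, 11.8% higher and 10.8% lower. All 4 that fell were AP-1 family members. ATF3 fell by 2.62 ± 0.20 (adjusted p = 3.33e-06), FOSB by 1.84 ± 0.41 (adjusted p = 0.00807), JUNB by 1.30 ± 0.10 (adjusted p = 7.21e-07) and FOSL1 by 0.47 ± 0.067 (adjusted p = 1.48e-06). JUN rose by 0.85 ± 0.20 (adjusted p = 0.0105) and EGR1 by 1.24 ± 0.16 (adjusted p = 1.80e-04). EGR2 rose by 1.89 ± 0.55 (adjusted p = 0.0103), from 16 to 63 counts in 3 libraries, and lost the call without Control 2 (1.60, adjusted p = 0.0695) or C5a 3 (1.43, adjusted p = 0.117). FOS (-0.84 ± 0.43, adjusted p = 0.203), EGR3 (-0.59 ± 0.64, adjusted p = 0.573) and IER2 (0.13 ± 0.13, adjusted p = 0.525) did not pass. Libraries of C5a and Control did not overlap in 7 of the 10 genes (40.4% of all genes), and 5 passed with a log2 fold change over 1 in size (2.07%).

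C5a lowered 18 of the 22 other immediate early genes and raised 3, where 22.6% of all genes were called. The same share stands beside the other C5a list counts. NR4A1 fell by 2.82, KLF10 by 1.99, KLF4 by 1.90 and ZFP36 by 1.89. Of the AP-1 targets 2 rose and 4 fell, among them HBEGF (-1.70), HMOX1 (-0.54) and PLAUR (-0.46), and of the AP-1 family 0 rose and 2 fell, JUND by 0.79 and FOSL2 by 0.34. The kinase gene MAP3K8, which acts upstream of ERK, fell by 0.71, in a list of 12 with 2 higher and 2 lower. Of the EGR1 targets 2 rose and 5 fell (PDGFA at 0.42, F3 at -0.47). Neither NAB1 nor NAB2 passed, 2 of 6 SRF genes rose and 1 fell (MRTFB at 0.33, ELK1 at -0.27), and 5 of 11 heat shock genes rose, HSPD1 by 0.34.

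Epinephrine raised 6 of the 10 genes and lowered 0, against 25.2% of all genes called and 13.5% higher. The largest log2 changes were those of the low EGR2 (2.65 ± 0.52, adjusted p = 1.88e-04, from 16 to 108 counts) and EGR3 (2.67 ± 0.48, adjusted p = 5.36e-05, from 16 to 110 counts). EGR1 rose by 1.04 ± 0.16 (adjusted p = 5.68e-04) and FOSL1 by 0.53 ± 0.064 (adjusted p = 5.50e-08). JUN rose by 0.69 ± 0.20 (adjusted p = 0.0278), a call lost without Control 2, Epinephrine 2 or Epinephrine 3 (0.49 to 0.68, adjusted p 0.0557 to 0.0746). ATF3 rose by 0.62 ± 0.18 (adjusted p = 0.0252), a call lost without Control 2, Control 3 or Epinephrine 3 (0.49 to 0.60, adjusted p 0.0713 to 0.099). FOS was at -0.83 ± 0.43 (adjusted p = 0.197). FOSB (0.81 ± 0.37, adjusted p = 0.143), JUNB (-0.25 ± 0.096, adjusted p = 0.0841) and IER2 (0.36 ± 0.13, adjusted p = 0.0608) did not pass, but passed without Control 1 (1.25, adjusted p = 0.0393), Control 2 (-0.32, adjusted p = 0.0241) and Control 3 (0.47, adjusted p = 0.00938), respectively. Libraries of Epinephrine and Control did not overlap in 6 of the 10 genes (33.9% of all genes), and 3 passed with a log2 fold change over 1 in size (1.97%).

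Counts in the Epinephrine lists are read against the 25.2% of all genes called. Of the other lists, Epinephrine raised 5 and lowered 8 of the 22 immediate early genes, TRIB1 by 1.63 among the first. KLF2 (-0.99), GADD45B (-0.80) and DUSP1 (-0.74) were among the second. It raised 6 and lowered 0 of the 9 AP-1 targets (CD44 by 0.76, TIMP1 by 0.51, PLAU by 0.38, CCND1 by 0.29), and raised 5 and lowered 1 of the 10 EGR1 targets (F3 by 1.12, THBS1 by 0.49, PDGFB at -0.29). Among the other AP-1 subunits 0 of 7 passed, as did 0 of the 2 EGR corepressors, 2 of the 12 kinases (MAP3K8 at 0.22, RPS6KA1 at -0.24) and 1 of the 6 SRF genes (ELK4 at 0.26). Of the heat shock genes 7 rose and 1 fell (HSPE1 at 0.56, HSPB1 at -0.31).

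Against C5a, the Epinephrine libraries were higher in 5 of the 10 genes and lower in 0, where 17.1% of all genes were called and 8.98% were higher. EGR3 was higher by 3.26 ± 0.51 (adjusted p = 8.28e-06), ATF3 by 3.24 ± 0.20 (adjusted p = 5.99e-07), FOSB by 2.65 ± 0.41 (adjusted p = 0.00103), JUNB by 1.06 ± 0.099 (adjusted p = 5.64e-06) and FOSL1 by 1.00 ± 0.065 (adjusted p = 1.63e-14). FOS (0.01 ± 0.43, adjusted p = 0.994), JUN (-0.16 ± 0.20, adjusted p = 0.665) and EGR1 (-0.21 ± 0.15, adjusted p = 0.422) did not pass, nor did EGR2 (0.76 ± 0.43, adjusted p = 0.255) and IER2 (0.22 ± 0.13, adjusted p = 0.278). Among the other immediate early genes 17 were higher and 3 lower. Libraries did not overlap in 6 of the 10 genes (29.8% of all genes), JUN being the uncalled one, and 5 passed with a log2 fold change over 1 in size (1.99%); 8.08% of all genes were called lower.

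**Figure D4:**
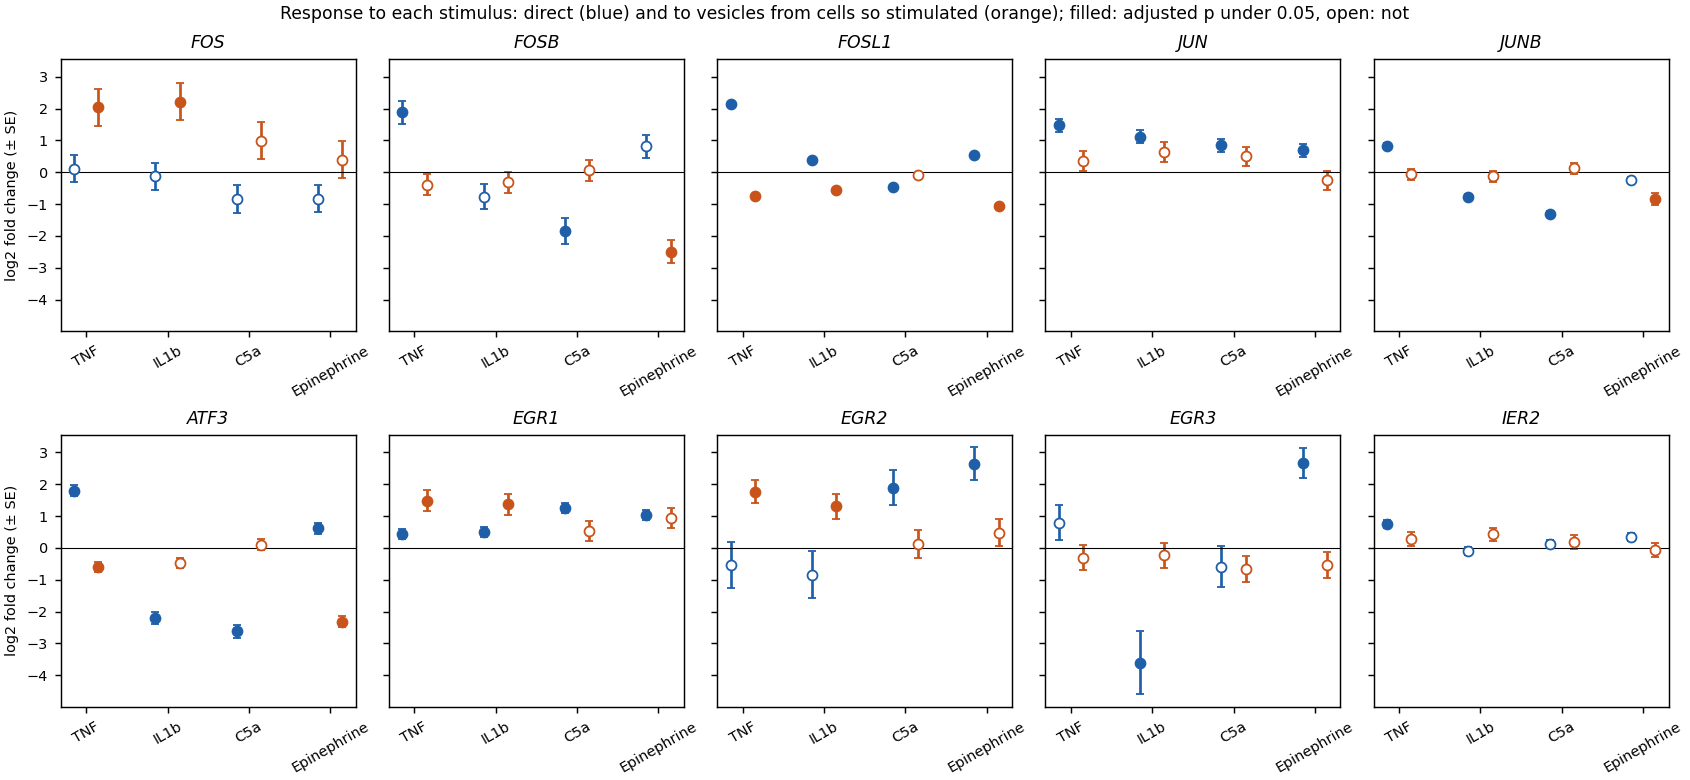
The log2 fold change of each gene (± SE) for the 4 direct stimuli against Control in blue and for vesicles of cells so stimulated against EV-Control in orange; filled points had an adjusted p under 0.05. The blue points of ATF3 lie at 1.80 for TNF and -2.20 for IL1b, and the orange points of FOS at 2.04 for TNF and 2.22 for IL1b.

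Cells given vesicles of TNF-treated cells differed from EV-Control in 5 of the 10 genes, 3 higher and 2 lower, against 13.3% of 15918 genes called, 5.9% higher and 7.42% lower. EGR1 rose by 1.48 ± 0.32 (edgeR's quasi-likelihood test, adjusted p = 0.0112) and EGR2 by 1.77 ± 0.37 (adjusted p = 4.82e-04, from 41 to 149 counts), the latter by 2.51 without EV-Control 3. FOSL1 fell by 0.76 ± 0.055 (adjusted p = 2.42e-16), where direct TNF raised it. FOS rose by 2.04 ± 0.58 (adjusted p = 0.043) and lost the call without EV-Control 1, EV-Control 2 or any 1 of the 3 EV-TNF libraries (1.59 to 2.26, adjusted p 0.0549 to 0.141), while without EV-Control 3 the log2 fold change was 3.22. ATF3 fell by 0.60 ± 0.17 (adjusted p = 0.0384) and lost the call without any 1 EV-Control library, EV-TNF 1 or EV-TNF 2 (-0.65 to -0.44, adjusted p 0.0633 to 0.117). JUN (0.35 ± 0.31, adjusted p = 0.555) and IER2 (0.28 ± 0.22, adjusted p = 0.489) passed without EV-Control 3 (0.83, adjusted p = 0.0452, and 0.62, adjusted p = 0.028). FOSB (-0.39 ± 0.33), JUNB (-0.07 ± 0.17) and EGR3 (-0.31 ± 0.39) did not pass. Libraries of EV-TNF and EV-Control did not overlap in 5 of the 10 genes (27.1% of all genes), and 3 passed with a log2 fold change over 1 in size (1.31%).

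Vesicles of IL1b-treated cells gave 4 calls, 3 higher and 1 lower, against 14.6% of all genes called, 6.49% higher and 8.14% lower. FOS rose by 2.22 ± 0.58 (adjusted p = 0.0287), a call lost without EV-Control 2 or any 1 EV-IL1b library (1.97 to 2.35, adjusted p 0.0514 to 0.102), while without EV-Control 3 the log2 fold change was 3.40. EGR1 rose by 1.36 ± 0.32 (adjusted p = 0.0162), a call lost without EV-Control 2 (1.33, adjusted p = 0.0571) or EV-IL1b 3 (1.27, adjusted p = 0.0546). EGR2 rose by 1.31 ± 0.39 (adjusted p = 0.015), lost without EV-Control 1 (0.83, adjusted p = 0.148) or EV-IL1b 3 (1.14, adjusted p = 0.0843), and at 2.05 without EV-Control 3. FOSL1 fell by 0.55 ± 0.055 (adjusted p = 1.59e-11). JUN (0.63 ± 0.31, adjusted p = 0.227) and IER2 (0.42 ± 0.22, adjusted p = 0.257) again passed without EV-Control 3 (1.11, adjusted p = 0.0109, and 0.76, adjusted p = 0.00946). ATF3 was at -0.48 ± 0.17 (adjusted p = 0.0862), and FOSB, JUNB and EGR3 were at -0.32, -0.13 and -0.23. Libraries of EV-IL1b and EV-Control did not overlap in 5 of the 10 genes (28.5% of all genes), ATF3 being the uncalled one, and 3 passed with a log2 fold change over 1 in size (1.38%).

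Calls in the other lists were given for both vesicle preparations side by side, against 13.3% of all genes called in EV-TNF and 14.6% in EV-IL1b. NAB2, an EGR corepressor gene that EGR1 itself can induce, fell by 1.12 in EV-TNF and by 1.08 in EV-IL1b, from 33.5 to 15.4 and 15.8 CPM, while NAB1 did not pass in either. Of the 22 other immediate early genes 2 rose and 6 fell in EV-TNF and 1 rose and 5 fell in EV-IL1b (NR4A1 at -0.68 and -0.77, GADD45B at -0.56 and -0.61). Of 8 tested AP-1 targets 1 rose and 5 fell in each (HBEGF at -1.18 and -1.19). Of the EGR1 targets 3 rose and 4 fell in each, with PDGFB at 0.61 and 0.57. In the AP-1 family BATF2 rose (1.33 and 1.20) and FOSL2 fell (-0.51 and -0.47), the only 2 of 7 called in each. MAP3K8 fell by 0.51 and 0.57, with 0 of 12 kinases higher in either, MRTFA was the only 1 of 6 SRF genes called (-0.15 in each), and 4 and 6 of the 11 heat shock genes rose, HSPA8 by 0.34 and 0.41. The comparisons share EV-Control, so a library of that group moves all of them.

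Vesicles of C5a-treated cells changed 0 of the 10 genes by edgeR's quasi-likelihood test, with 0 at an unadjusted p under 0.05 and 0 by DESeq2. The background was 0.0503% of 15918 genes. The largest values were those of FOS (0.99 ± 0.58, adjusted p = 0.755), EGR3 (-0.67 ± 0.41, adjusted p = 0.751), EGR1 (0.54 ± 0.32, adjusted p = 0.764) and JUN (0.50 ± 0.31, adjusted p = 0.78). IER2 was at 0.19, JUNB and EGR2 each at 0.13, ATF3 at 0.10, FOSB at 0.07 and FOSL1 at -0.07. Without EV-Control 3, FOS passed at 2.17 (adjusted p 0.05 after rounding). In the lists 0 genes passed. Libraries of EV-C5a and EV-Control did not overlap in 0 of the 10 genes (10.9% of all genes), and 0.0126% of all genes were called higher and 0.0377% lower.

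Vesicles of epinephrine-treated cells lowered 4 of the 10 genes and raised 0, against 19.7% of all genes called and 10.5% lower (1452 higher and 1679 lower, and 1971 and 1305 with total counts alone). FOSB fell by 2.50 ± 0.36 (adjusted p = 5.64e-04), ATF3 by 2.31 ± 0.18 (adjusted p = 4.37e-06), FOSL1 by 1.05 ± 0.056 (adjusted p = 1.24e-21) and JUNB by 0.84 ± 0.18 (adjusted p = 0.00654). All 4 calls held when any 1 library was left out. EGR1 was at 0.94 ± 0.32 (adjusted p = 0.0656) and FOS at 0.40 ± 0.58 (adjusted p = 0.71), and both passed without EV-Control 3 (1.42, adjusted p = 0.00352, and 1.57, adjusted p = 0.0268). JUN (-0.25), EGR2 (0.48), EGR3 (-0.54) and IER2 (-0.06) did not pass. Libraries of EV-Epinephrine and EV-Control did not overlap in 5 of the 10 genes (34.1% of all genes), EGR1 being the uncalled one, and 3 passed with a log2 fold change over 1 in size (2.31%); 9.12% of all genes were called higher.

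Of the 22 other immediate early genes EV-Epinephrine lowered 12 and raised 1, where 19.7% of all genes were called. The same share stands beside the other list counts. KLF4 fell by 1.55, NR4A1 by 1.49, SGK1 by 1.17 and TRIB1 by 1.00. Of 8 AP-1 targets 1 rose and 5 fell (HBEGF at -1.48), of 10 EGR1 targets 2 rose and 5 fell (F3 at -1.10, PDGFA at 0.67), and NAB2 fell by 1.11 while NAB1 did not pass. In the AP-1 family JUND (-0.78) and FOSL2 (-0.67) fell and BATF2 (0.80) rose. MAP3K8 fell by 1.00 and MAPK8 by 0.19 among 12 kinases with 0 higher, SRF (-0.18) and MRTFA (-0.15) fell among 6, and 3 of 11 heat shock genes rose, none by more than 0.12 (HSPB1).

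The 2 controls differed in these genes as well. EV-Control was above Control in 4 of the 10 and below in 0, in a fit of all 30 libraries with 21.9% of 16691 genes called and 12.1% higher (2024 higher and 1636 lower, and 1612 and 2168 with total counts alone). FOSB rose by 2.19 ± 0.36 (adjusted p = 1.14e-04), ATF3 by 1.35 ± 0.17 (adjusted p = 5.02e-06), FOSL1 by 0.92 ± 0.062 (adjusted p = 2.41e-18) and EGR3 by 2.18 ± 0.49 (adjusted p = 4.46e-04, from 16 to 71 counts). JUNB was at 0.19 ± 0.14 (adjusted p = 0.408). The widely spread genes decided the rest of the count by library: without EV-Control 1 there were 8 calls, with JUN (0.98, adjusted p = 0.00934), EGR1 (0.95, adjusted p = 0.00108), EGR2 (1.87, adjusted p = 0.00745) and IER2 (0.54, adjusted p = 0.0172) added. Without EV-Control 3, FOS fell by 2.01 (adjusted p = 0.00463), against -0.84 ± 0.51 (adjusted p = 0.277) with all libraries, and without Control 1 JUN passed (0.88, adjusted p = 0.048). The libraries of the 2 controls differ in the vesicles and in whatever handling came with them, which cannot be told apart. Libraries of the 2 controls did not overlap in 4 of the 10 genes (34.9% of all genes), and 3 passed with a log2 fold change over 1 in size (2.23%).

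In the same comparison 9 of the 22 other immediate early genes were higher and 3 lower, where 21.9% of all genes were called. TRIB1 by 1.55, NR4A1 by 1.12, KLF4 by 0.97 and SGK1 by 0.92 were among the higher. The same share stands beside the other list counts. Of 9 AP-1 targets 4 rose and 2 fell (HBEGF at 0.76, PLAU at 0.53, CCND1 at 0.41, HMOX1 at -0.38), and of 10 EGR1 targets 6 rose and 1 fell (F3 at 1.28, PDGFB at -0.88). NAB2 rose by 0.92, FOSL2 by 0.41 and MAP3K8 by 0.32, and BATF2 fell by 0.85. FOSL2 and BATF2 were the 2 of 7 AP-1 subunits called, 2 of 12 kinases rose and 0 fell, 2 of 6 SRF genes rose (ELK4 at 0.25), and 4 heat shock genes rose and 2 fell (HSPD1 at 0.27, DNAJB1 at -0.25).

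Whether a vesicle response differed from the direct response was tested as a difference of differences in the fit of all 30 libraries. For TNF 8 of the 10 genes differed, 3 with a higher and 5 with a lower vesicle response, where 44.7% of 16691 genes differed. For IL1b 6 differed, 5 higher and 1 lower, against 35.2%. With total counts alone the splits of all calls were 6889 higher to 2097 lower for TNF, in place of 3561 to 3907, and 3762 to 2273 for IL1b, in place of 2827 to 3052. For C5a 4 differed, all higher, against 11.9%, and for Epinephrine 6, all lower, against 24.2%. FOSL1, JUNB and ATF3 passed for all 4 stimuli, but all 4 tests share the EV-Control and Control libraries and are not independent. The 4 genes with a higher C5a difference fell with direct C5a and did not pass with EV-C5a. ATF3, for example, was at -2.62 with direct C5a and at 0.10 with EV-C5a. In ATF3 the log2 difference, vesicle minus direct, was -2.39 ± 0.24 for TNF and -2.92 ± 0.25 for Epinephrine, against 1.73 ± 0.25 for IL1b and 2.73 ± 0.26 for C5a. In FOSL1 the difference was -2.89 ± 0.086 for TNF and -1.57 ± 0.088 for Epinephrine, against -0.92 ± 0.087 for IL1b and 0.41 ± 0.088 for C5a. IER2 passed for none of the 4 (adjusted p 0.118 to 0.92). EV-Control stood far above Control in FOSB, ATF3 and FOSL1, so the vesicle responses of these genes start from a higher level. Differences over 1 in size passed in 7 genes for TNF (13.5% of all genes), 4 for IL1b (7.12%), 3 for C5a (1.58%) and 5 for Epinephrine (4.6%).

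Likeness across the 10 group means of log2 CPM is given as a description over groups that share the cell line. FOSB and ATF3 ran together (Pearson's r = 0.95), as did JUNB and ATF3 (0.95) and FOSB and JUNB (0.89). FOSL1 was most like JUNB (0.80). EGR1 and EGR2 formed another pair (0.86). FOS stood alone, with its highest r, 0.59, to EGR1, and JUN was most like IER2 (0.66). EGR1 against FOSL1 gave -0.35 and EGR2 against FOSL1 -0.40.

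**Figure D5:**
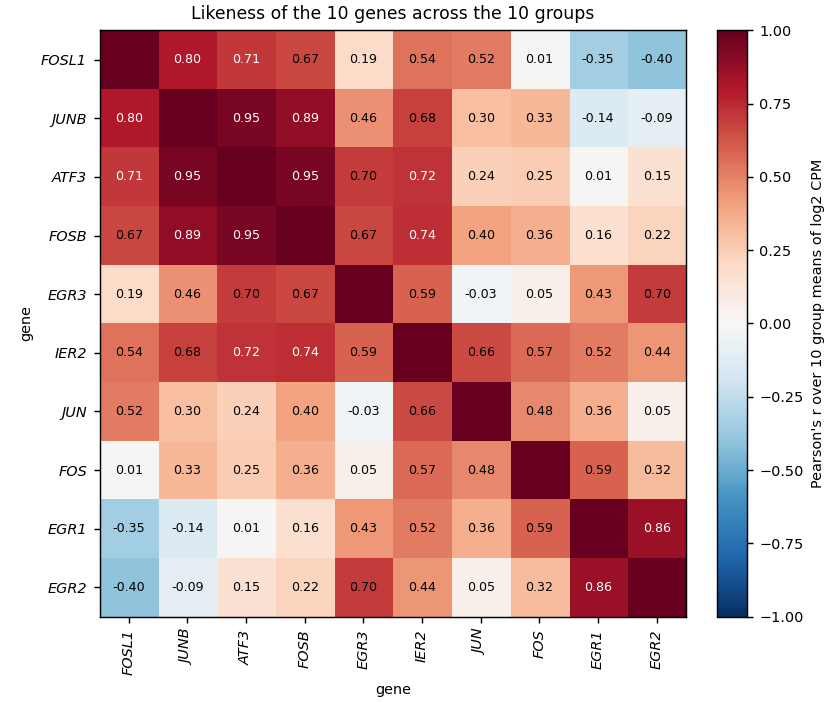
Pearson's r of the 10 group means of log2 CPM (prior count 2) between each pair of the 10 genes. FOSB, JUNB and ATF3 form a block of 0.89 to 0.95, and EGR1 and EGR2 meet at 0.86.

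Among 11048 other genes compared in the same way, the closest to ATF3 were SPRY4 (r = 0.98), ID2 (0.976) and BHLHE40 (0.975), and the closest to FOSL1 were IRF1 (0.985), CPEB2 (0.981) and RNF19B (0.97). KLF4 (0.968) and PPP1R15B (0.951) were among the closest to FOSB, and SGK1 (0.965), RRAD (0.963) and MAFF (0.957) to JUNB. For JUN they were USP34 (0.941), CSPP1 (0.913) and ATF2 (0.913), for EGR1 ZNF569 (0.957), SNRPD2 (0.917) and ADGRL2 (0.895), and for IER2 PLK2 (0.891), CTNND1 (0.888) and ENC1 (0.879). FOS had no gene as close, with U2AF1 (0.877), ZNF576 (0.799) and SDR42E1 (0.777). For the low EGR2 the closest were SCN9A (0.906), MREG (0.903) and ARL15 (0.894) and for EGR3 CSRP1 (0.935), UQCRH (0.929) and LAMTOR5 (0.911). Each value is among the highest of 11048 over only 10 group means. What r would arise without shared regulation was not tested.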

How the data were processed

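The authors deposited 1 table of raw counts per gene for 30 bulk RNA libraries, whole numbers that were not normalized. The submitters' processing notes name STAR, hg38, FastQC, DESeq2 and R 4.4.1 without roles; the counting program, annotation release and use of strand are not given in the sources used here. Of 63147 lines, 4 had no gene ID, 2 had no counts and 3 repeated an ID, which left 63138 genes, 41189 with a symbol. Groups came from the sample titles, and neither the titles nor the library names give a batch. Totals ran from 16643961 to 22112326 counts, and the 30 within-group pairs of libraries differed by more than sampling noise (chi-square per gene 2.04 to 12.9).

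The main test was edgeR's quasi-likelihood test (edgeR 4.0.16, limma 3.58.1, R 4.3.3) with the default filter on low counts (minimum 10), TMM factors (0.842 to 1.05) and a robust fit. Direct comparisons used the 15 direct libraries, vesicle comparisons the 15 vesicle libraries, and EV-Control against Control and the differences of differences all 30. Adjusted p is Benjamini-Hochberg over all genes tested, with a threshold of 0.05. All 10 genes are named in every direct and vesicle comparison and in that of the controls. For the differences of differences all called genes are named. Of the lists (other AP-1 subunits, EGR family and corepressors, SRF and cofactors, upstream kinases, other immediate early genes, AP-1 targets, EGR1 targets, heat shock genes), up to 4 called genes with the largest changes are named, and for likeness the 3 closest genes. A few genes that this rule would name are not reported here; the list counts include every gene tested. The members and lists were chosen with earlier results of these data known. The scripts were tested on simulated data. Alternatives were other scalings, no filter, DESeq2 1.42.0, a replicate block, all libraries in the fit, a fold threshold and leaving out each library.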

Additional observations from a re-analysis of the deposited data

Results flagged for a closer look

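These 24 results had a vesicle response that differed from the direct response in the difference of differences (edgeR's quasi-likelihood test, adjusted p under 0.05). Values are log2, vesicle response minus direct response, with SE. For TNF they were FOS 1.93 ± 0.71 (adjusted p = 0.0326), FOSB -2.28 ± 0.50 (6.87e-04), FOSL1 -2.89 ± 0.086 (3.41e-36) and JUN -1.13 ± 0.37 (0.0157). JUNB was at -0.88 ± 0.20 (0.00101), ATF3 at -2.39 ± 0.24 (3.33e-08), EGR1 at 1.05 ± 0.36 (0.0216) and EGR2 at 2.31 ± 0.83 (0.0192). For IL1b they were FOS 2.35 ± 0.72 (0.0133), FOSL1 -0.92 ± 0.087 (3.57e-13) and JUNB 0.66 ± 0.20 (0.0138), with ATF3 at 1.73 ± 0.25 (1.18e-05), EGR2 at 2.16 ± 0.84 (0.0396) and EGR3 at 3.38 ± 1.1 (0.0118). The EGR3 value rests on 1 count in the 3 IL1b libraries.

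For C5a they were FOSB 1.92 ± 0.53 (0.0194), FOSL1 0.41 ± 0.088 (7.11e-04), JUNB 1.44 ± 0.21 (5.10e-05) and ATF3 2.73 ± 0.26 (2.13e-07). For Epinephrine they were FOSB -3.30 ± 0.52 (4.56e-05), FOSL1 -1.57 ± 0.088 (9.21e-22) and JUNB -0.58 ± 0.20 (0.0411), with ATF3 at -2.92 ± 0.25 (9.48e-09), EGR2 at -2.16 ± 0.68 (0.014) and EGR3 at -3.20 ± 0.63 (5.99e-05).

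Some of these calls were lost when 1 library was left out. FOS for TNF was lost without Control 1, TNF 1, TNF 3, EV-Control 1, EV-Control 2, EV-TNF 2 or EV-TNF 3 (1.43 to 1.89, adjusted p 0.0552 to 0.126), and FOS for IL1b without Control 1 (1.85, 0.0589). Other single libraries raised the values: without EV-Control 3 FOS was at 3.10 for TNF and 3.52 for IL1b, and EGR2 at 3.05 for TNF and 2.89 for IL1b. FOS for TNF was at 2.52 without TNF 2, and EGR2 for IL1b at 3.10 without IL1b 3. JUN for TNF was lost without Control 2, TNF 2 or EV-Control 3 (-0.93 to -0.66, 0.0522 to 0.0885) and with total counts alone (-0.84, 0.0559), and EGR1 for TNF without Control 3 or TNF 1 (0.93 to 0.97, 0.0518 to 0.06). EGR2 was lost for TNF without Control 1, Control 3, TNF 3 or EV-Control 1 (1.83 to 2.19, 0.0534 to 0.0745) and for IL1b without Control 1, Control 3, IL1b 1, IL1b 2, EV-Control 1, EV-Control 2 or EV-IL1b 3 (1.58 to 2.15, 0.0552 to 0.146). For Epinephrine EGR2 was lost without Control 2 or EV-Control 3 (-1.87 to -1.42, 0.0569 to 0.183). FOSB for C5a was lost without Control 1, C5a 1, C5a 3 or EV-Control 1 (1.47 to 1.85, 0.0522 to 0.089). JUNB was lost for IL1b without EV-IL1b 3 (0.53, 0.0572) and for Epinephrine without 9 of the 12 libraries, each in turn, all but Control 1, Epinephrine 1 and EV-Control 1 (-0.60 to -0.44, 0.0634 to 0.134), as well as with total counts alone (-0.55, 0.0504). Without the low-count filter FOS for TNF (0.0731) and JUNB for Epinephrine (0.0836) were lost.

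In the other direction, leaving out EV-Control 3 gave calls for EGR1 (1.35, adjusted p = 0.00103) and IER2 (0.86, 0.00249) for IL1b, and for FOS for C5a (3.00, 0.00259) and Epinephrine (2.40, 0.00648). Leaving out EV-Control 1 gave calls for IER2 for TNF (-0.70, 0.00823) and Epinephrine (-0.65, 0.0272), for EGR1 (-1.05, 0.00859) and EGR2 (-2.25, 0.0173) for C5a, and for JUN for Epinephrine (-1.20, 0.0144).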

How the results depend on the processing

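Of 150 member results (10 genes, 15 comparisons), 78 were called, 20 of these lost the call without some library, and 24 others gained one. Of the results with a direction that turned without 1 library, 24 in number, 0 were called. Their ranges over single libraries left out were, for FOS, -0.48 to 0.61 (TNF), -0.43 to 0.37 (IL1b), -0.50 to 0.36 (IL1b against TNF), -0.10 to 0.09 (Epinephrine against C5a) and -0.05 to 1.57 (EV-Epinephrine). FOSB ran from -0.52 to 0.03 (EV-IL1b) and -0.13 to 0.42 (EV-C5a), and JUNB from -0.24 to 0.09 (EV-TNF), -0.30 to 0.03 (EV-IL1b) and -0.04 to 0.29 (EV-C5a). JUN ran from -0.51 to 0.22 (EV-Epinephrine) and -0.61 to 0.12 (C5a vesicle minus direct), and EGR1 from -0.05 to 0.20 (IL1b against TNF) and -0.43 to 0.39 (Epinephrine vesicle minus direct). EGR2 ran from -1.25 to 0.26 (IL1b against TNF), -0.35 to 0.87 (EV-C5a) and 0.00 to 1.22 (EV-Epinephrine), and EGR3 from -0.69 to 0.08 (EV-IL1b) and -0.41 to 0.17 (C5a vesicle minus direct). IER2 ran from -0.21 to 0.02 (IL1b), -0.04 to 0.53 (EV-C5a), -0.30 to 0.27 (EV-Epinephrine), -0.03 to 0.54 (EV-Control against Control) and -0.18 to 0.39 (C5a vesicle minus direct). With total counts alone FOS was at -0.16 for TNF and -0.01 for Epinephrine against C5a.

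Leaving out 1 library, the number of genes called was 6 to 7 for TNF, 5 to 6 for IL1b, 6 to 7 for C5a, 4 to 7 for Epinephrine, 6 to 6 for IL1b against TNF and 5 to 5 for Epinephrine against C5a. It was 3 to 6 for EV-TNF, 1 to 6 for EV-IL1b, 0 to 1 for EV-C5a, 4 to 6 for EV-Epinephrine and 4 to 8 for EV-Control against Control, and for the differences of differences 6 to 8 (TNF), 4 to 8 (IL1b), 3 to 5 (C5a) and 4 to 8 (Epinephrine). Requiring a log2 fold change over 1 left 4 genes for TNF, 3 for IL1b, 3 for Epinephrine and 3 for EV-TNF, fewer by construction, and without the low-count filter EV-TNF had 3; the cause of the latter was not tested. That setting ended 9 calls: EGR1 for TNF (adjusted p = 0.0877) and IL1b (0.0511), JUN (0.0609) and ATF3 (0.0562) for Epinephrine, FOS (0.0938) and ATF3 (0.0792) for EV-TNF, FOS for EV-IL1b (0.0615) and the differences for FOS (TNF) and JUNB (Epinephrine). It gave calls for JUNB (2.48e-04) and IER2 (0.00438) for Epinephrine. All 30 libraries in the fit ended EGR1 for TNF and IL1b and JUN for Epinephrine (0.0628), and gave EGR1 for EV-Epinephrine (0.0115). DESeq2 gave 7 calls. For Epinephrine they were JUNB (0.0128) and IER2 (0.00569), and with vesicles ATF3 for EV-IL1b (0.0359) and EGR1 for EV-Epinephrine (0.0177). The others were JUN for EV-Control against Control (0.041) and the differences for EGR1 (IL1b, 0.0379) and JUN (Epinephrine, 0.0441). DESeq2 moved 0 calls to an adjusted p of 0.05 or more, but some called genes had no adjusted p from it. By DESeq2 6 genes passed for Epinephrine, JUNB and IER2 among them, where the main test had 6. For Epinephrine against C5a 4 passed, where the main test had 5. Total counts alone gave JUNB for Epinephrine (0.0447) and the IL1b difference for EGR1 (0.0411). Relative log expression factors changed 0 of 150 calls.

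Correlations of same-numbered deviations between the groups of a comparison, over all genes, were -0.04 to 0.03. Such deviations can be mostly counting noise, so these values cannot decide whether libraries of the same number belong together. With the replicate block, JUN (adjusted p = 0.0558) and ATF3 (0.0514) lost the call for Epinephrine, and IER2 for Epinephrine (0.0369), ATF3 for EV-IL1b (0.0402), EGR1 for EV-Epinephrine (0.0296) and EGR1 for the IL1b difference of differences (0.0227) gained one; the block left 7 (TNF), 6 (IL1b), 7 (C5a) and 5 (Epinephrine) genes called. List counts under other scalings were added after seeing the data: the median changed sign in 21 of 120 results with total counts alone and in 3 with relative log expression factors. Among the direct comparisons with Control, those under total counts were the EGR corepressors (TNF 0.04 to -0.24, IL1b 0.03 to -0.05), the SRF genes (TNF 0.14 to -0.14) and the kinases (TNF 0.02 to -0.25, IL1b 0.03 to -0.06). Depth limits EGR2 and EGR3, at 0 to 56 counts a library.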

Other observations

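Other genes also differed among the 3 EV-Control libraries, and these were picked after their values were seen. KLF2, an endothelial transcription factor gene, stood at 63.4, 113 and 174 CPM in EV-Control 1, 2 and 3, and DUSP1, which encodes a phosphatase of MAP kinases, at 646, 1090 and 1470, in the same order of libraries as FOS, JUN and EGR1. The opposite order was seen in NR4A3 (137, 80.7 and 28.1 CPM), the cytokine genes CSF2 (14.7, 5.62 and 3.23) and CSF3 (13.7, 5.67 and 2.79), IRAK2 (64.9, 25.2 and 17.8), REL (63.7, 27.1 and 18.6) and the adhesion molecule gene VCAM1 (43.5, 20.7 and 13.8). Every vesicle comparison uses these libraries.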
